A study of Homo sapiens with 2 samples.

Results

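Imprinted genes are expressed mainly from a single parental copy, which is set by DNA methylation laid down at imprinting control regions in the egg or sperm and kept through later cell divisions. Many lie in clusters in which a long non-coding RNA from one parent's chromosome goes with silence of neighbouring genes on it, and many act on growth, the placenta or the brain. Cultured human pluripotent stem cells are known to gain or lose imprints at some loci. The counts here do not tell the parental copies apart, so only total levels are described.

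The 38 imprinted genes were chosen by name, and 31 of them, in 19 domains or single loci, were listed in the gene tables, which hold 22474 genes. The other 7 (KCNQ1, MEG3, MEG8, PEG3, ZIM2, NNAT and DIRAS3) are not analysed here. The tables list only genes with a read in at least 3 of the 41 cells. Compared were 25 feeder-free extended pluripotent stem cells (ffEPSCs), a state credited with wider developmental potential and here obtained from the human embryonic stem cell line H9, and 16 H9 embryonic stem cells (ESCs). Both states share the line and the Smart-seq2 protocol, which reads polyadenylated RNA of a single cell at full length, without molecular barcodes and without marking strand. The labels name neither passage, medium nor the agents of the conversion, and H9 is a single donor's line.

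Each state was deposited as 1 sample, so there is no test between states, and the values describe these libraries. The level of a gene is its summed count over a library's cells, scaled as CPM to the sum over all genes. Ratios are ffEPSC over ESC, log2 of CPM + 1, and 95% intervals cover counting error only. The ffEPSC cells had 12507469 to 17811209 gene counts and the ESC cells 11714517 to 19965639, and the libraries shared 0 cell names. Cell names carry a set number of unstated meaning: the ffEPSC cells came from sets 1 (3 cells), 2 (9), 3 (2) and 4 (11), and the ESC cells from sets 1 (7) and 3 (9). All 8 pluripotency markers checked were read at 5 CPM or more, with a median log2 ratio of 0.26. Of 8 fibroblast or feeder markers, 3 passed 5 CPM and 2 of these were at least 2-fold lower in ffEPSCs, with a summed level per cell of 32.5 to 406 CPM in ffEPSC cells and 60.4 to 634 CPM in ESC cells, most of it THY1, which pluripotent cells also express. COL3A1, DCN and LUM were not listed. The 4 ESC cells with under 15000000 counts (shallow ESC cells) stood apart for several imprinted genes named below and were lower for POU5F1, by 2.95 in log2 of CPM + 1 relative to the other 12. In 18 of the 25 ffEPSC cells genes of chromosomes 5, 11, 14, 20 and 22 were higher as a whole (mean shift 0.48 to 0.66 in log2), whereas the other 7 ffEPSC cells (-0.01 to 0.25), called unshifted below, and the ESC cells (-0.26 to 0.12) lacked most of it. Chromosomes 11, 14 and 20 carry 11 of the listed imprinted genes, so the value in the 7 unshifted cells is given beside results for them. Both ffEPSC cells of set 3 are among the unshifted cells, so values for set 3 and for the unshifted cells are not separate checks.

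Of the 31 listed genes, 20 reached 5 CPM in at least 1 library, 18 of them in both. Of these 20, 4 exceeded the ESC library by 2-fold or more in ffEPSCs (the non-coding RNA gene KCNQ1OT1, PHLDA2, SLC22A18 and ZNF597), against 8.3% of all 10825 genes that reached 5 CPM. At least 2-fold lower were 0 of the 20, against 5.84% of all genes. SLC22A18 and ZNF597 passed the minimum through the ffEPSC library alone, so they could only be counted as higher. The median log2 ratio of the 20 was 0.19, with 13 higher and 7 lower, beside 0.04 over all genes. It was 0.045 over the 15 that lie outside the 5 chromosomes. Cells of set 1 alone gave a median of 0.066 and those of set 3 alone, with 2 ffEPSC cells, gave -0.27, so the group had no stable direction. The summed level of the 31 genes, over both parental copies, was 1329 to 1946 CPM per cell in ffEPSC cells. In ESC cells it was 591 to 1440 CPM, and the ranges overlapped.

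**Figure D1:**
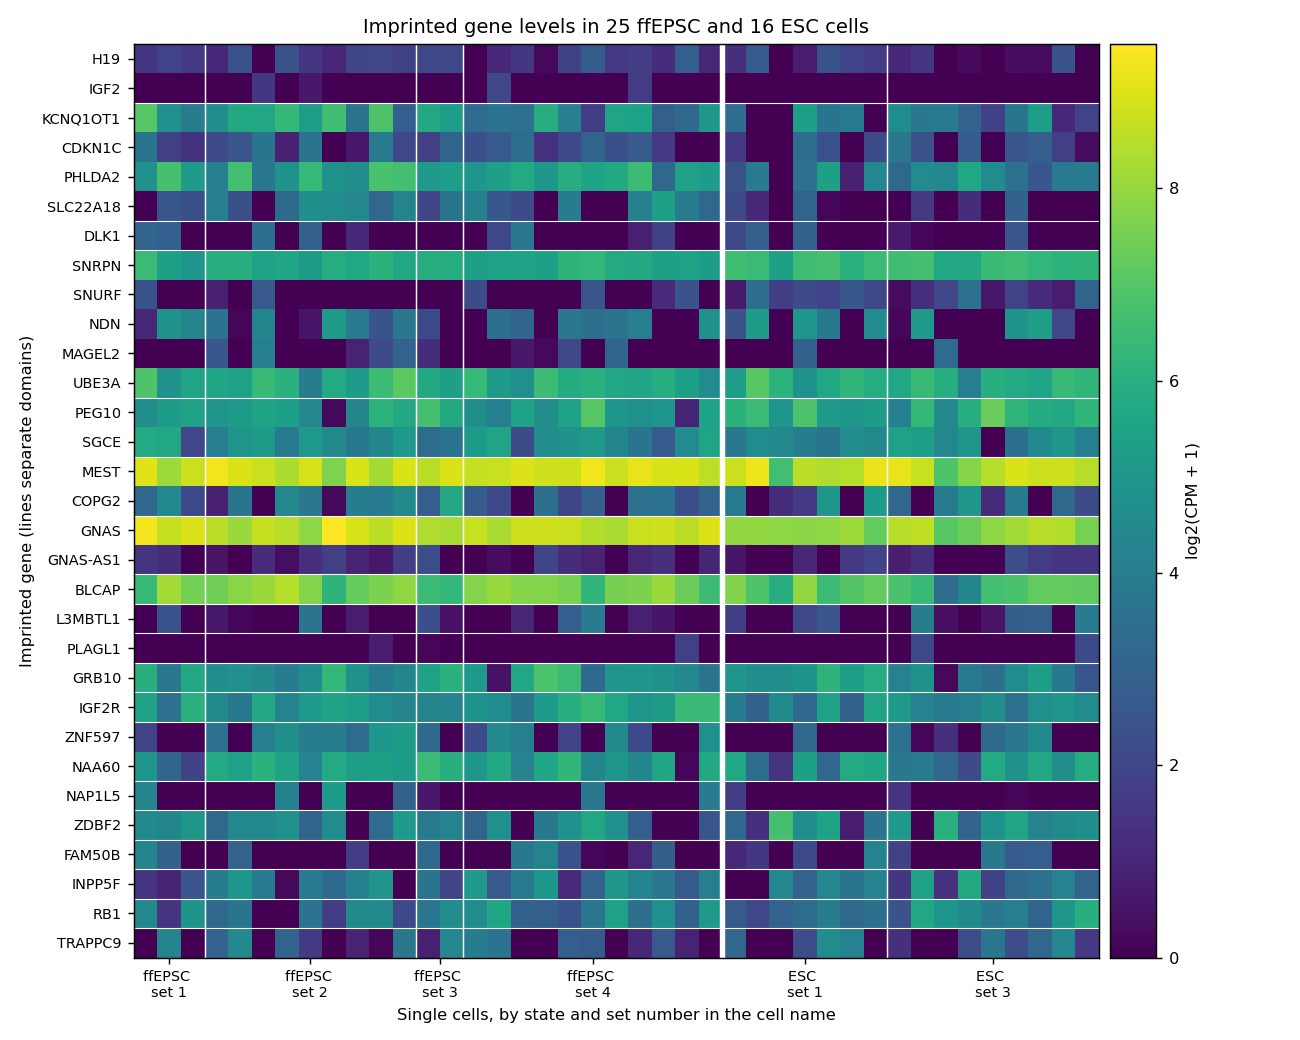
Level of each of the 31 listed imprinted genes (rows, by domain) in each of the 25 ffEPSC and 16 ESC cells (columns, by set), as log2(CPM + 1) in colour. MEST, GNAS and BLCAP are read in every cell of both states, SNURF is read in all 16 ESC cells but 7 of 25 ffEPSC cells, and IGF2 in 4 ffEPSC cells and 0 ESC cells.

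Per kilobase of annotated exon, levels of the imprinted genes ran over several orders of magnitude. MEST, which encodes a hydrolase-like protein expressed from the paternal copy, stood highest, at 93.5 CPM per kilobase in ffEPSCs and 83.4 in ESCs. In ffEPSCs it was followed by PHLDA2 (52.1 CPM per kilobase), GNAS (30.5), BLCAP (23.8) and SNRPN (15.2). In ESCs the order was SNRPN (23.6), GNAS (19.5), PHLDA2 (16.3) and BLCAP (15.54). PHLDA2 and BLCAP in ESCs lay closer to each other than their spread between cells. All other listed members had at most 9.78 CPM per kilobase in either library. Reads were found in every cell of both states for 9 of the 31.

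The KCNQ1 domain on chromosome 11 held 3 of the 4 genes that were at least 2-fold higher in ffEPSCs. KCNQ1OT1 (chromosome 11, 2608328 to 2699994, minus strand, GRCh38) is the long non-coding RNA made from the paternal copy, and it is known to go with silencing of the neighbouring maternally expressed genes CDKN1C, PHLDA2 and SLC22A18. Its lowest, median and highest levels were 2.42, 32.1 and 128 CPM over ffEPSC cells, against 0, 10.7 and 39.9 CPM over ESC cells. It was read in all 25 ffEPSC cells and in 13 of 16 ESC cells, and 10 ffEPSC cells lay above every ESC cell while the rest overlapped. The libraries stood at 38.9 CPM (95% interval 38.2 to 39.5) in ffEPSCs and 12.2 CPM (11.7 to 12.6) in ESCs, a log2 ratio of 1.5995. Within set 1 the ratio was 2.19 and within set 3 it was 1.78. Among ffEPSC cells the level differed by set, at 52.0 CPM in set 2 and 22.1 CPM in set 4.

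PHLDA2 (2928273 to 2929455, minus strand), which encodes a small pleckstrin-homology protein that restrains growth of the placenta, had 8.004, 39.1 and 108 CPM as lowest, median and highest level in ffEPSC cells, against 0, 13.9 and 49.9 CPM in ESC cells. Of the ffEPSC cells 9 lay above every ESC cell and 23 above the ESC median. The libraries stood at 49.8 and 15.6 CPM in ffEPSCs and ESCs, a log2 ratio of 1.62. Set 1 alone gave 2.06, and set 3 alone gave 0.995, just under 2-fold. Among the ESC cells the shallow ones were higher, at 28.3 CPM against 12.5 CPM in the deeper ones, and without them the ratio was 1.92.

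SLC22A18 (2899721 to 2925246, plus strand), an organic cation transporter gene, was read in 20 of 25 ffEPSC cells and 7 of 16 ESC cells. Its lowest, median and highest levels were 0, 7.84 and 41.1 CPM in ffEPSC cells and 0, 0 and 7.33 CPM in ESC cells. With 14 ffEPSC cells above every ESC cell and 5 at 0, the states overlapped only at the low end. The log2 ratio of 2.29 (95% interval 2.199 to 2.39) was the largest of the 20 genes, but it was 0.46 within set 1 and 1.98 within set 3.

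Genes of chromosome 11 were higher as a whole in ffEPSCs: the median log2 ratio of 585 other genes was 0.34, and 13% of them were at least 2-fold higher. Relative to that median, KCNQ1OT1 stood at 1.26, PHLDA2 at 1.28 and SLC22A18 at 1.96. In the 7 unshifted ffEPSC cells, KCNQ1OT1 was at 37.4 CPM (log2 ratio to ESCs 1.54), PHLDA2 at 42.3 CPM (1.39) and SLC22A18 at 5.42 CPM (1.41). All 3 stayed at least 2-fold above the ESC library in these cells, whose shift for chromosome 11 alone was -0.04 to 0.16. In the other ffEPSC cells KCNQ1OT1 was at 39.5 CPM, PHLDA2 at 52.8 CPM and SLC22A18 at 13.05 CPM. Whether the shift accounts for part of the differences between states was not tested. CDKN1C, the cyclin-dependent kinase inhibitor gene of the same domain, differed by less than 2-fold. It was at 4.83 CPM in ffEPSCs and 3.54 CPM in ESCs (0.36), with 0.67 in set 1 and 0.21 in set 3. In the unshifted ffEPSC cells it stood higher, at 6.67 CPM (0.76), against 4.10 CPM in the other ffEPSC cells. Its cells overlapped over nearly their whole range, 0 to 14.3 CPM in ffEPSCs and 0 to 12.8 CPM in ESCs. KCNQ1OT1 lies inside KCNQ1 on the other strand, and all 5 annotated genes it overlaps are on the opposite strand. The labels do not say how reads there were assigned, and without strand the reads of KCNQ1OT1 and KCNQ1 cannot be told apart.

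**Figure D2:**
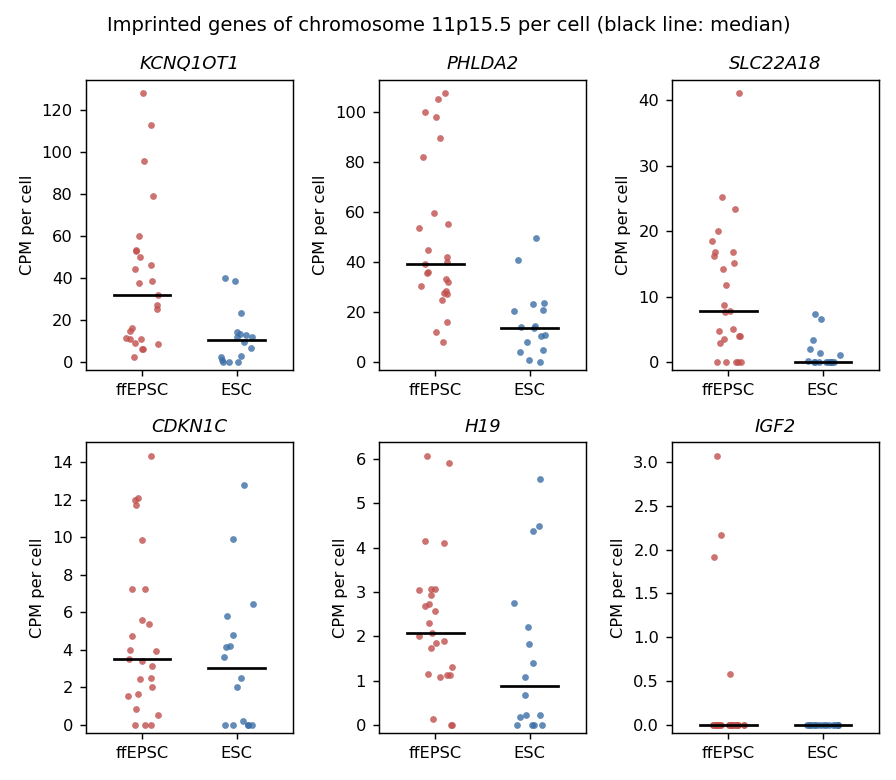
CPM per cell (y axis, linear) of 6 imprinted genes of chromosome 11 in ffEPSC cells (left, n = 25) and ESC cells (right, n = 16); points are cells and black lines medians. KCNQ1OT1, PHLDA2 and SLC22A18 have higher medians in ffEPSC cells with overlap between states, CDKN1C and H19 overlap over most of their range, and IGF2 is at 0 in all but 4 ffEPSC cells.

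The neighbouring H19 and IGF2 domain was low in both states. H19, the maternally expressed non-coding RNA, was at 2.37 CPM in ffEPSCs and 1.58 CPM in ESCs (log2 ratio 0.39), with reads in 23 of 25 ffEPSC cells and 12 of 16 ESC cells. The ratio was -0.11 in set 1 but 1.08 in set 3, and 0.56 in the unshifted cells (2.81 CPM). The fetal growth factor gene IGF2 was at 0.315 CPM in ffEPSCs, from 4 of 25 cells. ESCs gave 0 reads of it, where 3 counts would give 0.0113 CPM and the exact Poisson interval reached 0.0139 CPM. Of its ffEPSC counts 40.7% came from 1 cell, sets 1 and 3 of either state held 0 reads, and the unshifted cells stood at 0.453 CPM. DLK1, the paternally expressed Notch-ligand-like gene of chromosome 14, was read in 9 of 25 ffEPSC cells and 6 of 16 ESC cells, at 1.99 and 1.43 CPM, and up to 12.8 CPM in an ffEPSC cell and 6.54 CPM in an ESC cell. Its log2 ratio of 0.30 was 0.67 in set 1, -0.71 in set 3 and 0.77 in the unshifted cells (3.14 CPM).

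The SNRPN domain of chromosome 15, the Prader-Willi and Angelman syndrome region, was lower in ffEPSCs for its main coding transcript. SNRPN (24823637 to 24978723, plus strand), which encodes a spliceosomal Sm protein and is expressed from the paternal copy, had 30.2, 49.6 and 88.4 CPM as lowest, median and highest level in ffEPSC cells, against 41.2, 85.8 and 99.6 CPM in ESC cells. Only 1 ffEPSC cell lay above the ESC median, 6 lay below every ESC cell and 7 ESC cells lay above every ffEPSC cell. The libraries stood at 51.8 CPM (51.1 to 52.6) in ffEPSCs and 80.5 CPM (79.5 to 81.6) in ESCs. The log2 ratio of -0.63, short of 2-fold, was -0.65 in set 1, -0.41 in set 3, -0.70 without the shallow ESC cells and -0.36 in the unshifted ffEPSC cells.

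SNURF (24954986 to 24977850, plus strand), the upstream reading frame carried by the same transcript, was read in all 16 ESC cells but in 7 of 25 ffEPSC cells. That is 28.0% of ffEPSC cells (95% Clopper-Pearson interval 12.1% to 49.4%) and 100% of ESC cells (79.4% to 100%). At 1 CPM or more it was found in 6 of 25 ffEPSC cells and 12 of 16 ESC cells. Thinning every cell to 11000000 counts left the numbers of cells with a read as they were, but thinning cannot add reads to cells at 0. The lowest, median and highest levels were 0, 0 and 5.32 CPM in ffEPSC cells, against 0.239, 2.82 and 11.1 CPM in ESC cells. The 18 ffEPSC cells at 0 thus lay below every ESC cell, and the other 7 fell within the ESC range. By set, SNURF was read in 1 of 3, 2 of 9, 0 of 2 and 4 of 11 ffEPSC cells of sets 1 to 4, and in 7 of 7 and 9 of 9 ESC cells of sets 1 and 3. The libraries stood at 0.952 CPM in ffEPSCs and 3.29 CPM in ESCs (log2 ratio -1.14, -1.01 within set 1 and -1.96 within set 3), under the 5 CPM minimum in both. Of 6314 genes read in all ESC cells, 0.38% were read in under 50% of ffEPSC cells, and among those at 1 to 5 CPM in the ESC library, as SNURF was, 1.06% (3 of 282). This pattern was singled out after its values were seen. SNURF lies wholly within SNRPN and shares its exons, so its counts depend on how overlapping reads were assigned. SNURF made up 1.80% of the reads of the pair in ffEPSCs and 3.93% in ESCs.

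The other genes of the region showed no common direction. SNHG14, the long host RNA that overlaps SNRPN and runs antisense to UBE3A, stood at 781 CPM in ffEPSCs and 629 CPM in ESCs (0.31). UBE3A, the ubiquitin ligase gene of Angelman syndrome, was level at 56.6 CPM in ffEPSCs and 61.6 CPM in ESCs (-0.12), with reads in every cell. Because SNHG14 overlaps both SNRPN and UBE3A, the counts of all of them depend on how shared reads were assigned. Without strand, reads of UBE3A and SNHG14 cannot be told apart where they overlap. NDN, a MAGE-family growth suppressor gene, had a lower sum in ffEPSCs (9.24 and 13.6 CPM in ffEPSCs and ESCs, -0.52) but a higher median over cells (9.98 CPM in ffEPSC cells and 3.73 CPM in ESC cells). It was read in 19 of 25 ffEPSC cells and 10 of 16 ESC cells, and the ratio was 0.04 within set 1 and -2.23 within set 3. MAGEL2, its neighbour and relative, was read in 10 of 25 ffEPSC cells and 2 of 16 ESC cells, at 1.72 and 0.897 CPM. Its log2 ratio of 0.52 was -1.01 in set 1, where 0 of 3 ffEPSC cells read it, -0.09 in set 3 and -0.16 in the unshifted cells.

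**Figure D3:**
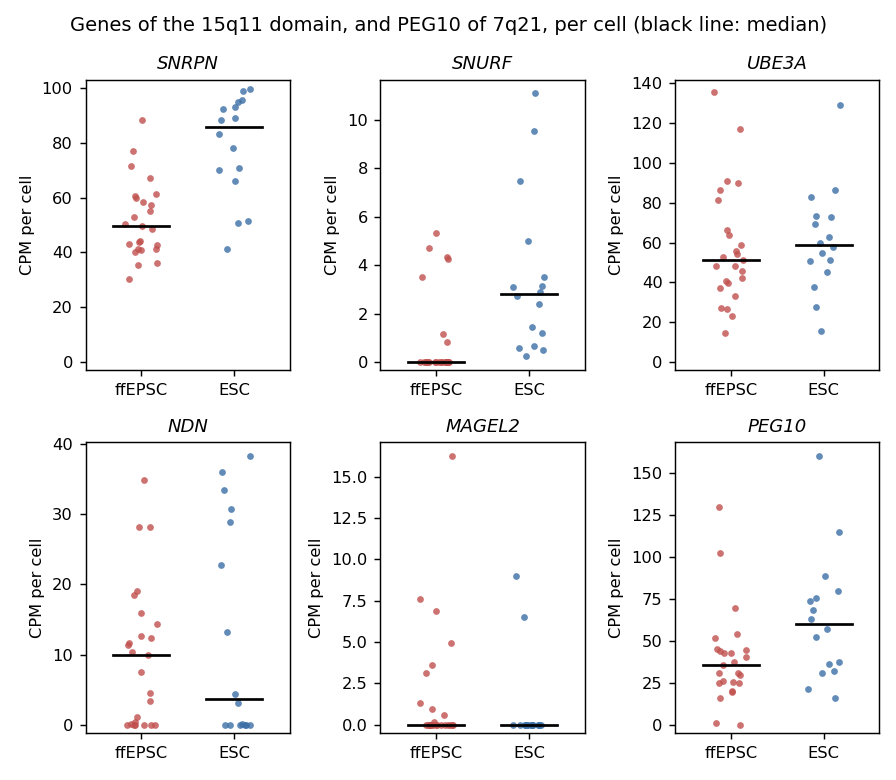
CPM per cell (y axis, linear) of 5 genes of the SNRPN domain and of PEG10 in ffEPSC cells (left, n = 25) and ESC cells (right, n = 16); points are cells and black lines medians. SNRPN has a median of 49.6 CPM in ffEPSC cells and 85.8 CPM in ESC cells, SNURF is at 0 in 18 ffEPSC cells and in 0 ESC cells, and UBE3A overlaps throughout.

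Sequence upstream of the start is shown for 3 genes chosen after their values were seen: SNURF for how few ffEPSC cells read it, and NAP1L5 and ZNF597 for their higher levels. It comes from the RefSeq promoter table (GRCh38.p14), in which 21 of the 31 listed genes were found. The 250 bases before the RefSeq start are given 5′ to 3′ on the gene's strand. For ZNF597 that start lies inside the gene as placed by GENCODE version 29, which runs to 3443553. Its window thus overlaps the first bases of that gene and of NAA60, which starts at 3443611 on the other strand. Capitals mark TGCCGC or its reverse complement GCGGCA, the core word that the imprint-protecting zinc finger protein ZFP57 binds when methylated. The SNURF window is also that of 1 of the 4 SNRPN starts in the table.
SNURF, chr15:24954737-24954986, plus strand: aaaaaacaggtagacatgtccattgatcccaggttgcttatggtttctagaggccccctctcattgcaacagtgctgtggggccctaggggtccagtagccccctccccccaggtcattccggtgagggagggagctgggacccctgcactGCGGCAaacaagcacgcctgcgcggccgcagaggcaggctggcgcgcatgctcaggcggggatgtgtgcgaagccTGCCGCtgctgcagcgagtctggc
NAP1L5, chr4:88697830-88698079, minus strand: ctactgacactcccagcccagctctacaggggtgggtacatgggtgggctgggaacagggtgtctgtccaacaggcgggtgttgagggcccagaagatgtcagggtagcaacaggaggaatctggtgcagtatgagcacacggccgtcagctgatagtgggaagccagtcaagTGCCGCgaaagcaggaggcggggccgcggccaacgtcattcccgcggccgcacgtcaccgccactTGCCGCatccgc
ZNF597, chr16:3443505-3443754, minus strand: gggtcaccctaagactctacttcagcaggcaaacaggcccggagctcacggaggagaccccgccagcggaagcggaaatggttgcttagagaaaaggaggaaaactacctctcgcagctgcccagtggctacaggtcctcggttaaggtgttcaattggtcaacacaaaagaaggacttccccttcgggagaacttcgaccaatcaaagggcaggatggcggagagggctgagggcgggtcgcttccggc
SNURF and NAP1L5 each hold 2 copies, as do or exceed 1.69% of all 35116 start windows in the table, and ZNF597 holds 0. The word was present in 13 of 49 start windows of the listed members (26.5%) and in 12.7% of all windows. Members' windows were also richer in CG, with a median of 16 CG pairs against 11 over all windows, and the word itself contains CG. A match describes these letters and says nothing on binding or methylation, which were not measured.

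NAP1L5 (chromosome 4, 88695915 to 88697829, minus strand), a nucleosome assembly protein-like gene inside an intron of HERC3, was read in 7 of 25 ffEPSC cells and 3 of 16 ESC cells. It reached 35.9 CPM in an ffEPSC cell and 2.304 CPM in an ESC cell, and 6 ffEPSC cells lay above every ESC cell while the medians were 0 in both states. The libraries stood at 3.85 CPM in ffEPSCs and 0.286 CPM in ESCs (log2 ratio 1.92, 2.37 within set 1 and 0.11 within set 3), under the 5 CPM minimum. ZNF597 (chromosome 16, 3432422 to 3443553, minus strand), a maternally expressed zinc finger gene, was read in 17 of 25 ffEPSC cells and 7 of 16 ESC cells. Its highest level was 37.2 CPM in ffEPSC cells and 22.2 CPM in ESC cells, with medians of 8.77 and 0 CPM. The log2 ratio of 1.08 did not hold within sets: it was -0.22 in set 1 and -0.46 in set 3. It also lay under 2-fold without the shallow ESC cells (0.85) and in the unshifted ffEPSC cells (0.67). The higher level came from sets 2 (17.3 CPM) and 4 (8.26 CPM), which hold ffEPSC cells alone, so set and state cannot be told apart for it. NAA60, the acetyltransferase gene that starts beside it on the other strand, stood at 39.1 CPM in ffEPSCs and 31.5 CPM in ESCs (0.30), but at -1.23 within set 1 and 1.26 within set 3.

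On chromosome 7 the paired genes PEG10 and SGCE differed in direction. PEG10, a paternally expressed gene derived from a retrotransposon, was at 0.156, 35.5 and 130 CPM (lowest, median, highest) in ffEPSC cells and 16.2, 59.8 and 160 CPM in ESC cells. The log2 ratio was -0.70, with -0.77 in set 1 but 0.19 in set 3. In the unshifted ffEPSC cells PEG10 stood at 60.6 CPM, a ratio of -0.11. SGCE, the epsilon-sarcoglycan gene that starts head to head with PEG10, stood at 24.6 CPM in ffEPSCs and 20.9 CPM in ESCs (0.23), with 0.93 in set 1 and -1.08 in set 3, where both directions turned. MEST was at 202 to 625 CPM in ffEPSC cells and 97.3 to 615 CPM in ESC cells, a log2 ratio of 0.16. The 4 shallow ESC cells stood at 196 CPM for MEST, against 449 CPM in the other 12. COPG2, a coat protein gene whose end overlaps MEST, had 10.3 CPM in ffEPSCs and 9.84 CPM in ESCs (0.06), but the ratio was 1.73 in set 3, -0.20 in set 1 and 0.44 without the shallow ESC cells. GRB10, an adaptor that dampens insulin and growth factor receptor signals, was at 35.4 CPM in ffEPSCs and 26.6 CPM in ESCs (0.40), but at 0.06 within set 1 and 1.64 within set 3.

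On chromosome 20, GNAS and BLCAP were higher in ffEPSCs by less than 2-fold, L3MBTL1 was lower and GNAS-AS1 was near level. GNAS, which encodes the stimulatory G protein alpha subunit, was read at 234, 409 and 712 CPM (lowest, median, highest) in ffEPSC cells and 131, 244 and 388 CPM in ESC cells, and 14 ffEPSC cells lay above every ESC cell. Its log2 ratio was 0.65, and 1.13 and 0.21 within sets 1 and 3. BLCAP, a small membrane protein gene whose intron holds NNAT, stood at 188 CPM in ffEPSCs and 122 CPM in ESCs (0.61, but -0.33 within set 3). The median over 275 other genes of chromosome 20 was 0.38, which leaves 0.27 for GNAS and 0.23 for BLCAP. In the 7 unshifted cells GNAS was at 393 CPM (0.60) and BLCAP at 138 CPM (0.18). GNAS-AS1, the antisense RNA of the GNAS locus, was at 1.02 CPM in ffEPSCs and 1.18 CPM in ESCs, and the chromatin reader gene L3MBTL1 at 1.85 and 3.50 CPM. Their ratios of -0.12 and -0.66 ran against that of the chromosome. In the unshifted cells GNAS-AS1 was at 1.19 CPM and L3MBTL1 at 3.66 CPM, close to their ESC levels.

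Among single imprinted loci the receptor gene IGF2R, which clears IGF2 from the cell surface, had the largest ratio short of 2-fold. It was at 11.02, 33.7 and 84.0 CPM (lowest, median, highest) in ffEPSC cells and 6.44, 19.7 and 46.4 CPM in ESC cells, and 7 ffEPSC cells lay above every ESC cell. The log2 ratio of 0.77 was 0.92 within set 1 and -0.27 within set 3. ZDBF2, a paternally expressed zinc finger gene, was lower, at 16.4 CPM in ffEPSCs and 25.5 CPM in ESCs (-0.61). Its ESC level was 54.6 CPM in the 4 shallow cells and 18.5 CPM in the other 12, and the ratio was -0.16 without the 4. The tumour suppressor gene RB1 (-0.22), the trafficking gene TRAPPC9 (-0.22) and the phosphatase gene INPP5F (0.05) had small ratios over all cells that did not hold within sets. RB1 was at 0.98 in set 1 and -0.50 in set 3, and TRAPPC9 at -0.24 in set 1 and 0.61 in set 3. INPP5F was at -1.69 in set 1, -0.95 in set 3 and -0.91 in the unshifted cells. FAM50B had 3.47 CPM in ffEPSCs and 3.53 CPM in ESCs (-0.02), from 11 of 25 and 8 of 16 cells, but its ratio was 1.01 in set 1, 0.30 in set 3 and 0.69 in the unshifted cells. PLAGL1, a growth-regulating zinc finger gene, had at most 2.48 CPM in an ffEPSC cell and 3.43 CPM in an ESC cell, with reads in 3 and 2 cells.

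**Figure D4:**
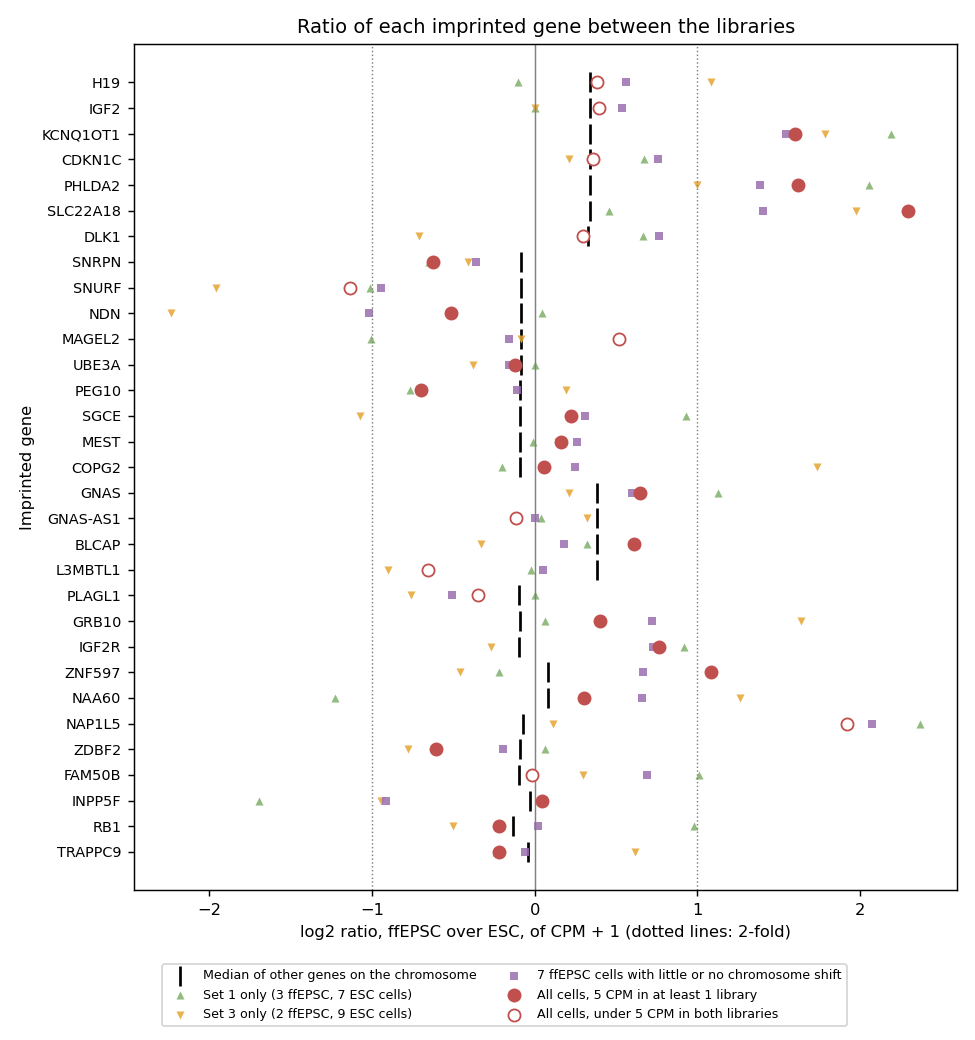
Log2 ratio of ffEPSC over ESC levels (x axis, CPM + 1) for each of the 31 imprinted genes: large points use all cells, small marks use set 1, set 3 or the 7 unshifted ffEPSC cells, and black bars give the median of other genes of the chromosome. KCNQ1OT1 lies beyond 2-fold in each of these, PHLDA2 in all but set 3 (0.995), and ZNF597 changes sign within sets. The unshifted cells include both ffEPSC cells of set 3.

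Over 13 pairs of neighbours, Pearson r of log2(CPM + 1) ran from -0.22 to 0.44 over 25 ffEPSC cells and from -0.55 to 0.65 over 16 ESC cells. KCNQ1OT1 and PHLDA2 had r = 0.08 in ffEPSC cells and 0.04 in ESC cells, and SNRPN and NDN had 0.02 in ffEPSC cells and 0.65 in ESC cells. Cells of a state share a library and differ in depth and set, and no p-value is given.

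Other imprinted genes and the proteins that keep imprints were described from lists fixed by name. Of 54 further genes reported as imprinted in human or mouse, 24 were listed and 13 reached 5 CPM. At least 2-fold higher were 3, against the 8.3% of all genes, and 0 were at least 2-fold lower, against 5.84%. Their median log2 ratio was 0.31, with 11 higher and 2 lower. Over all genes it was 0.04, with 5726 higher and 5099 lower. CD81, TSSC4, NAP1L4, GDAP1L1 and HM13 lie on chromosomes 11 and 20, whose genes were higher as a whole. Relative to the chromosome median, TSSC4 stood at 0.04, NAP1L4 at -0.02 and HM13 at -0.05, but CD81 at 1.098 and GDAP1L1 at 0.91. SLC22A3 and GDAP1L1 passed the minimum through the ffEPSC library alone, so they could only be counted as higher. SLC22A3, a cation transporter gene next to IGF2R, was at 9.68 CPM in ffEPSCs and 1.997 CPM in ESCs (1.83, 1.89 within set 1 and 2.58 within set 3). CD81, a tetraspanin gene at the edge of the KCNQ1 domain, was at 77.1 CPM in ffEPSCs and 27.9 CPM in ESCs (1.44, 1.09 and 1.05 within sets 1 and 3). GDAP1L1 on chromosome 20 was at 12.8 and 4.63 CPM (1.29, but -0.60 within set 3). OSBPL5, at the other edge of the KCNQ1 domain and named after its values were seen, was at 3.88 CPM in ffEPSCs and 0.610 CPM in ESCs (1.5999), under the minimum.

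Of 33 imprint maintenance factors, 30 were listed and 28 reached 5 CPM, of which 3 exceeded the ESC level by 2-fold or more and 2 fell short of it by as much, against 8.3% and 5.84% of all genes. The 3 higher ones passed the minimum through the ffEPSC library alone and TET2 through the ESC library alone, so their direction was fixed by the filter. The list's median log2 ratio was -0.13, but 0.18 in set 1 and 0.26 in set 3. Higher were DNMT3L, the cofactor of the de novo methyltransferases (261 CPM in ffEPSCs and 0.219 CPM in ESCs, 7.75), NLRP7, a maternal-effect gene linked to lost maternal imprints in moles (18.9 and 0.392 CPM, 3.84, from 12 of 25 and 2 of 16 cells) and DPPA3, known to shield imprints in the mouse egg (17.1 and 2.58 CPM, 2.34). DNMT3L ran from 1.80 to 1114 CPM over ffEPSC cells, and its ratio was 8.57 within set 1 and 4.20 within set 3. NLRP7 was at 0.24 within set 1. Lower were the dioxygenase gene TET2 (1.32 and 5.27 CPM, -1.44, but -0.19 in set 1 and -0.43 in the unshifted cells) and the silencing factor SMCHD1 (23.4 and 48.2 CPM, -1.01, but -0.36 in set 3 and -0.96 in the unshifted cells).

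The maintenance methyltransferase DNMT1 had 58.9, 122 and 210 CPM as lowest, median and highest level in ffEPSC cells, against 122, 176 and 232 CPM in ESC cells. Of the ffEPSC cells 12 lay below every ESC cell, and the log2 ratio was -0.46 (-0.33 within set 1 and -0.34 within set 3). Its recruiter UHRF1 stood at 20.3 CPM in ffEPSCs and 37.9 CPM in ESCs (-0.87, but -0.32 and -0.12 within sets 1 and 3). TRIM28, the corepressor that ZFP57 and ZNF445 bring to imprinted regions, was at 247 CPM in ffEPSCs and 185 CPM in ESCs (0.42). ZNF445 was at 13.1 and 17.2 CPM (-0.37, with -0.76 within set 1 but 0.31 within set 3). ZFP57 was at 2.197 and 0.949 CPM (0.71), with reads in 5 of 25 ffEPSC cells and 2 of 16 ESC cells. Its ratio was -1.66 within set 1, -0.04 within set 3 and -0.96 in the unshifted cells. The ffEPSC reads of ZFP57 came from sets 2 and 4 alone, which hold no ESC cells, so set and state cannot be told apart for it. The de novo methyltransferase DNMT3A was at 237 and 174 CPM (0.44, but -0.10 within set 3). Log2 ratios of the shallow ESC cells over the deeper ones were -1.42 for TRIM28, -1.52 for DNMT3A and -2.19 for UHRF1, but 0.07 for DNMT1. The ESC levels of the first 3 thus depend on those cells.

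**Figure D5:**
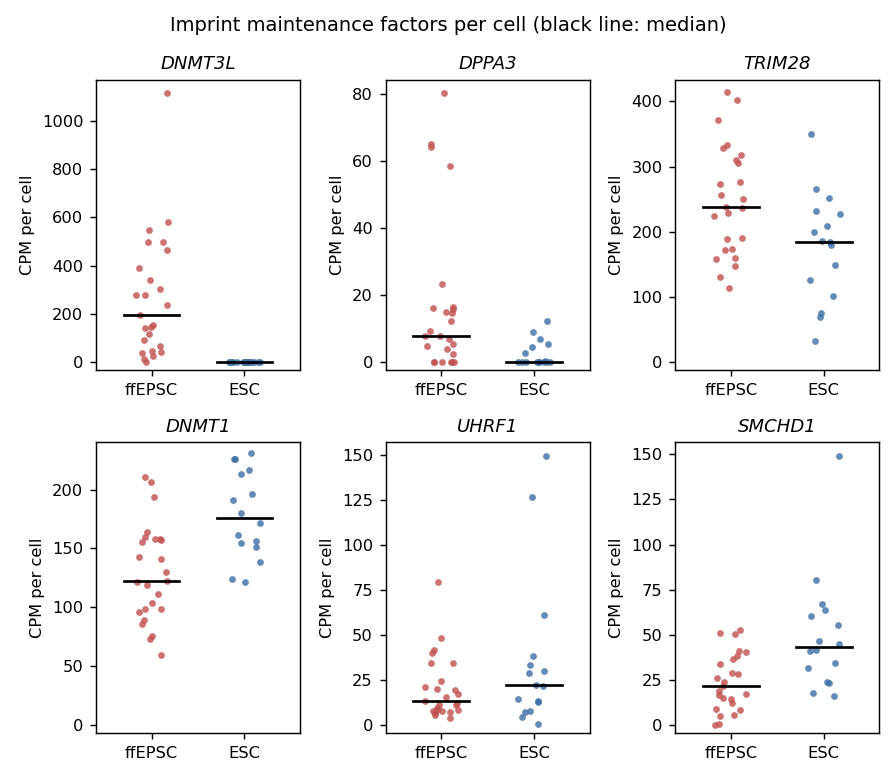
CPM per cell (y axis, linear) of 6 imprint maintenance factors in ffEPSC cells (left, n = 25) and ESC cells (right, n = 16); points are cells and black lines medians. DNMT3L separates the states, narrowly at the edge: the lowest ffEPSC cell, of set 3, is at 1.80 CPM and the highest ESC cell at 1.101 CPM. Of all 10825 genes that reached 5 CPM, 23 (0.212%) have no overlap between the states. For DNMT1, 12 ffEPSC cells have less than any ESC cell, and TRIM28, UHRF1 and SMCHD1 overlap.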

How the data were processed

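Single-cell RNA-seq counts of 41 H9 cells were analysed, grouped by the cell type in the labels. The authors deposited unnormalized whole-number counts per gene and cell. Per the labels, libraries were Smart-seq2. The submitters' processing notes name HISAT2 2.2.1, SAMtools 1.6, featureCounts, Subread 2.0.6 and the build GRCh38; the annotation, strand setting and treatment of overlapping genes they used are not stated there. About 98.4% (ffEPSC) and 98.5% (ESC) of non-zero counts were even, so counting intervals are narrower than fragments would give. Repeat tables were not used.

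Counts were summed per library and scaled to CPM. Exact Poisson intervals were used for levels, conditional binomial ones for ratios and Clopper-Pearson ones for shares of cells. For a count of 0 the level that 3 counts would give is printed beside the interval. Coordinates and exon lengths come from GENCODE version 29 (GRCh38), matched by symbol for 31 of 31 listed members and 94.1% of genes with 5 CPM. The chromosome shift of a cell is the mean over genes with 20 CPM, members left out, of log2(CPM + 1) minus the ESC mean, minus the cell's median autosome; cells were separated at 0.3. Doublets were not called and no cell was removed. TMM factors came from edgeR 4.0.16. The steps were tested on simulated data. Members with 5 CPM or reads in at least 50% of a library's cells were to be named, and of other lists up to 8 genes of at least 2-fold plus 8 named factors; the other members were named as well. The members and lists were chosen with earlier results of these data known.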

Additional observations from a re-analysis of the deposited data

How the results depend on the processing

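The number of imprinted genes at least 2-fold higher in ffEPSCs was 4 and lay between 3 and 5 under the alternatives tried, though not of the same genes (of the 4, set 1 kept KCNQ1OT1 and PHLDA2, against 17.8% of all genes higher there, and set 3 kept KCNQ1OT1 and SLC22A18, against 12.7%), except 2 at a minimum of 20 CPM and 1 outside chromosomes 5, 11, 14, 20 and 22. The number at least 2-fold lower was 0, but 1 with no CPM minimum (SNURF), 2 within set 1 (NAA60 and INPP5F, against 11.3% of all genes there), 2 within set 3 (NDN and SGCE, against 14.8%) and 1 in the 7 unshifted ffEPSC cells (NDN). The median log2 ratio of 0.19 was 0.15 with TMM factors, 0.14 with median-of-ratios size factors, 0.23 with no CPM minimum, 0.30 at 20 CPM, 0.39 with the median over cells, 0.066 within set 1, -0.27 within set 3, 0.22 without each library's highest cell, 0.27 without the shallow ESC cells, 0.29 in the unshifted cells, 0.22 relative to the chromosome, 0.045 outside the 5 chromosomes and 0.31 when scaled to genes outside them. The last scaling was chosen after the data were seen and moved the median of all genes to 0.12. Of the 4 genes, ZNF597 changed direction, at -0.22 within set 1 and -0.46 within set 3; its median over cells gave 3.29. Genes short of 2-fold over all cells turned direction too, among them NAA60 and RB1 in set 1, SGCE, IGF2R, BLCAP and PEG10 in set 3, INPP5F in both and NDN by the median over cells. Of the other values of single genes under an alternative, 125 lay within the counting interval and 245 outside it, and 121 of 124 counts of cells with a read moved by less than their interval. The other 3 were counts at 1 CPM or more: SNURF in ESC cells (12, from 16), and GNAS-AS1 (11, from 18) and L3MBTL1 (6, from 12) in ffEPSC cells. The causes were not tested. No paired analysis was possible because each state was 1 deposited sample. Thinning every cell to 11000000 counts moved the cells with a read of 1 gene, NDN, to 9 ESC cells. The labels do not say how many cultures the cells came from, so the spread between cultures is unknown.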
